A study of Mus musculus with 12 samples.

Results

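The comparison described here is that of BK KO with WT mice in the cortex. Its members are all genes of the deposited cortex table, 561 of the 1017 genes found in either table of the series. Of these, 365 were absent from the hippocampus table, which holds 652 genes, and 196 were in both. A gene absent from the hippocampus table was only not called there, and a difference between the tissues was not tested.

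The study sequenced RNA of hippocampus and cortex from adult BK KO mice and their WT littermates, 12 libraries in all, 3 per genotype and tissue. By the study's methods both tissues came from the same mice, so agreement between hippocampus and cortex is not independent. BK KO mice (kcnma1-/-) carried a small CRISPR/Cas9 deletion in kcnma1 in every cell from conception, so the loss was present throughout development and in every cell type. WT mice (kcnma1+/+) came from the same heterozygous breeding pairs. For each sample, 2 μg of total RNA went into a poly-A library. With 3 mice per genotype, an exact permutation test cannot give a p-value under 0.1.

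BK channels are large-conductance potassium channels that open on depolarization and intracellular calcium, and they shape the repolarization of the action potential and transmitter release. The pore-forming subunit is encoded by Kcnma1 and is found in neurons and in muscle. The cortex samples were whole tissue, which holds neurons, astrocytes, oligodendrocytes, microglia and vessels, so that fewer cells of a type and less RNA per cell cannot be told apart.

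The values were taken as FPKM, fragments scaled to transcript length and library size, since the authors give no unit. Their depth is unknown. Only genes the authors had called on these libraries were listed, so every count and p-value here describes listed genes and is no independent test. The threshold used here was met by a log2 fold change beyond 0.58 together with a limma p-value, unadjusted, of less than 0.05, both on log2(FPKM + 1). Fold changes on this scale understate those of genes with low FPKM.

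Kcnma1 checked the genotype labels. It measured 12, 9.82 and 11.8 FPKM across WT libraries 1 to 3, against 3.09, 2.97 and 2.76 FPKM for BK KO. Every BK KO library lay far below all WT libraries, and transcript remained in each of them. The fitted log2 change was -1.63 (standard error 0.10; limma adjusted p = 0.00178 over the 561 genes; exact permutation test, two-sided, p = 0.1, the smallest possible). That adjustment covers only genes already called on these same libraries. The cortex label could not be checked as the genotype labels were, since 0 of 43 cortical layer and projection neuron markers were among the called genes.

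Past the threshold were 173 of 561 genes (30.8%), 61 higher in BK KO mice (10.9%) and 112 lower (20%). A pseudocount of 0.1 in place of 1 gave 408, and without WT library 3 the higher genes numbered 34, so the shares hold for the pseudocount of 1 and all 6 libraries. Groups did not overlap in 452 genes (80.6%), with all BK KO libraries above in 136 (24.2%) and below in 316 (56.3%). The median log2 fold change over all 561 genes was -0.33. Among the 365 genes absent from the hippocampus table, 92 were past the threshold, 36 higher and 56 lower, and the median was -0.28. Among the 196 shared genes, 81 were past it, 25 higher and 56 lower, with a median of -0.45. Since the authors' selection used the same contrast, nothing is read from these shares. Of the listed genes, 216 had a mean FPKM under 1.

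**Figure D1:**
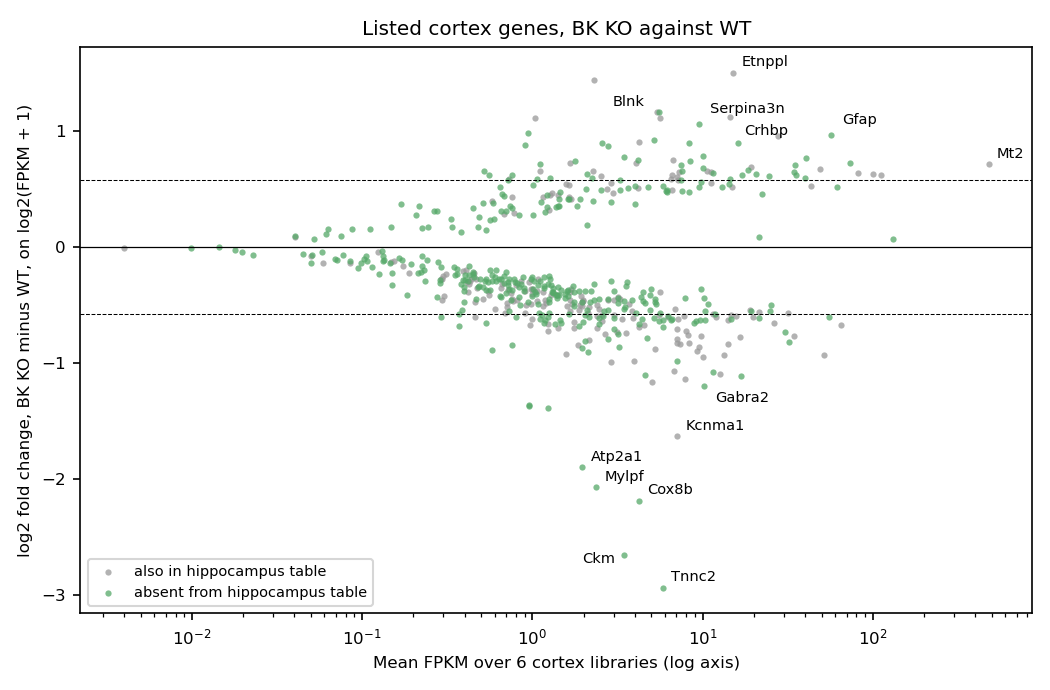
Mean FPKM over the 6 cortex libraries (log axis) against the log2 fold change of BK KO minus WT on log2(FPKM + 1), 1 point per listed gene, without the 2 genes at 0 in all libraries; dashed lines mark 0.58 in each direction. The largest falls are muscle genes absent from the hippocampus table, from -2.93 for Tnnc2, and the largest rise is Etnppl at 1.5.

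Libraries differed within a group in particular gene sets. WT library 1 stood above the other WT libraries in most skeletal muscle genes. WT library 3 was the lowest WT library for Gfap, Serpina3n and the listed class II genes of the major histocompatibility complex (MHC). Several results below are given with and without these libraries.

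The largest falls were in genes of skeletal muscle contraction. In muscle, calcium released through Ryr1 binds troponin C on the thin filament, myosin then pulls on actin, and the pump encoded by Atp2a1 returns calcium to the store. Of 79 genes of this list, 23 were in the cortex table and 22 of these were absent from the hippocampus table. Lower in BK KO mice were 22 of the 23, where 395 of all 561 genes were lower. The mean FPKM was under 1 in 14 of the 23, and in 216 of all 561 genes. In this list 12 genes were past the threshold, 11 lower and 1 higher. The groups did not overlap in 21 genes, and the median log2 fold change was -0.57. Over all 561 genes, 30.8% were past the threshold and 80.6% did not overlap. The summed level of the list came to 112, 50.5 and 40.9 FPKM over WT libraries 1 to 3, against 19.4, 21.3 and 17 FPKM for BK KO. WT library 1 held more than the other WT libraries, and all WT sums lay above all BK KO sums. Acta1, skeletal alpha-actin, was the most abundant member, with a mean of 11.5 FPKM. Without WT library 1, 11 of the list were past the threshold, and 9 without BK KO library 2 or 3. The list had 21 at a pseudocount of 0.1, and 8 when a mean FPKM of at least 1 was required. Over the whole table without the muscle list, 161 genes were past it.

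Tnnc2 encodes troponin C of fast muscle, the calcium sensor of the thin filament. It measured 25.2, 5.01 and 4.16 FPKM across WT libraries 1 to 3, against 0.495, 0.0949 and 0.109 FPKM for BK KO. WT library 1 was far above the other WT libraries, and all BK KO libraries were below all of WT. Its log2 fold change was -2.93 (standard error 0.62) and was -2.19 without WT library 1. Ckm, the creatine kinase that buffers ATP in muscle, measured 13.9, 3.15 and 3.47 FPKM across WT libraries 1 to 3, against 0.0802 and 0.0361 FPKM for BK KO libraries 1 and 2, and was listed at 0 in BK KO library 3. The gap again held with the high WT library left out, where the log2 fold change went from -2.65 (standard error 0.49) to -2.05. Cox8b, a muscle-type subunit of cytochrome c oxidase, measured 10.3, 6.90 and 5.66 FPKM across WT libraries 1 to 3, against 1.18, 0.870 and 0.553 FPKM for BK KO. Its WT libraries lay closer together than those of Tnnc2 and Ckm, and its standard error was smaller, with a log2 fold change of -2.18 (standard error 0.22).

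Mylpf, a regulatory light chain of fast myosin, measured 8.57, 2.85 and 2.25 FPKM across WT libraries 1 to 3, against 0.111, 0.384 and 0.0599 FPKM for BK KO, a log2 fold change of -2.07 (standard error 0.41), -1.59 without WT library 1. Atp2a1 had a log2 fold change of -1.90 (standard error 0.35), which was -1.49 without WT library 1. Both were highest in WT library 1 and near 0 in BK KO. The troponin genes Tnnt3 and Tnni2 had log2 fold changes of -1.37 and -1.36, which were -0.98 and -1.04 without WT library 1. Acta1 measured 26.0, 13.2 and 9.73 FPKM across WT libraries 1 to 3, against 7.49, 6.32 and 6.12 FPKM for BK KO. Its BK KO libraries were well above 0, unlike those of Tnnc2 and Ckm, and its log2 fold change of -1.07 (standard error 0.33) was -0.70 without WT library 1. The call of Acta1 was lost without BK KO library 2, at -1.05.

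The muscle genes did not all follow WT library 1. Myh4, a heavy chain of the fastest myosin, measured 0.103, 1.07 and 0.815 FPKM across WT libraries 1 to 3, against 0.0770, 0.0907 and 0.148 FPKM for BK KO. Here WT library 1 was the low one and the groups overlapped. Ryr1, the calcium release channel of muscle that is also expressed in brain, measured 1.29, 1.76 and 1.62 FPKM across WT libraries 1 to 3, against 0.877, 0.660 and 0.479 FPKM for BK KO. WT library 1 was again lowest of its group, and the log2 fold change was -0.62 (standard error 0.12), with the call lost without BK KO library 3 (-0.53) or WT library 2 (-0.56). Ckmt2, the mitochondrial creatine kinase of muscle, Mylk2, a myosin light chain kinase, and Myot, a Z disc protein, were listed at 0 in all BK KO libraries. Of these, Ckmt2 passed the threshold at -0.60, and its call was lost in 5 of the 6 fits that left out 1 library, with -0.33 without WT library 1. Myl1, an essential myosin light chain, had a log2 fold change of -0.68, which was -0.37 without WT library 1, and passed in 1 of these 6 fits.

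Klhl40, which encodes a protein that stabilizes thin filaments of muscle, was the one list member that rose. It measured 2.68, 4.38 and 2.75 FPKM across WT libraries 1 to 3, against 5.46, 9.62 and 6.31 FPKM for BK KO. Each BK KO library was above all WT libraries, and the log2 fold change was 0.92 (standard error 0.24). Xirp2, an actin-binding protein of muscle, was the one list member also in the hippocampus table, with FPKM of 0.221 or less in all cortex libraries. Of 25 smooth and cardiac muscle genes only Synpo2 was listed, with a log2 fold change of 0.35 that did not pass. Of 11 blood cell genes only Hba-a2, a hemoglobin chain, was listed. It measured 32.8, 17.6 and 18.1 FPKM across WT libraries 1 to 3, against 10.1, 5.19 and 16.3 FPKM for BK KO. BK KO library 3 lay just under the lower WT libraries, and the log2 fold change of -1.11 (standard error 0.42) was -0.83 without WT library 1 and -0.72 without BK KO library 2, past the threshold in 1 of 6 such fits. Hemoglobin genes are near-identical copies, and their reads may be split between them. Muscle genes and Hba-a2 moved with genotype and in part with WT library 1, and the part of other tissue in this result was not tested.

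**Figure D2:**
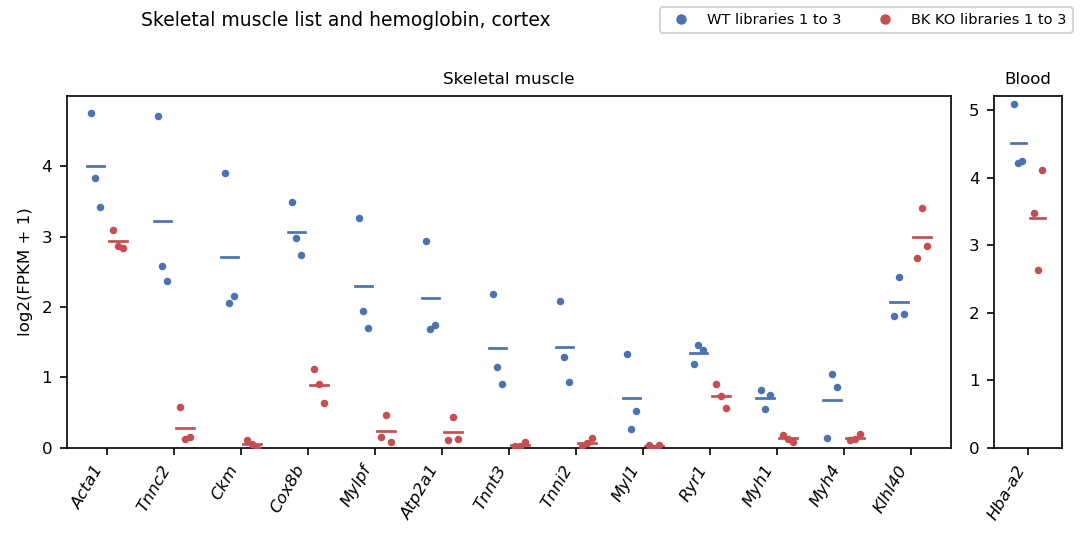
log2(FPKM + 1) of genes of the skeletal muscle list and of Hba-a2 in each cortex library, WT and BK KO side by side with libraries 1 to 3 from left to right; bars are group means (n = 3). WT library 1 is the highest for Tnnc2 (25.2 FPKM) and most others, and Klhl40 alone is higher in BK KO.

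Promoters of Ckm, Mylpf and Tnnc2 are shown because these genes were among the largest falls. They are the RefSeq sequences of GRCm38.p6 around each gene's start, 300 bases long and read 5′ to 3′ along the gene. Capitals mark CAGCTG, one form of the E-box bound by myogenic factors, which reads the same on both strands. Other forms of the E-box were not searched. The Ckm sequence is chr7:19410844-19411143 (plus strand), that of Mylpf is chr7:127211358-127211657 (plus strand) and that of Tnnc2 is chr2:164779685-164779984 (minus strand).
Ckm: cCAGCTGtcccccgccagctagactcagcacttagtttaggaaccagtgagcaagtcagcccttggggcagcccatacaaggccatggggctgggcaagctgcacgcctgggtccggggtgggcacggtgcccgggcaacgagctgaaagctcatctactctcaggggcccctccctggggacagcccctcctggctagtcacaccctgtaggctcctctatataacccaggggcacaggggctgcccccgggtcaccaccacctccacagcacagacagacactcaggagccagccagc
Mylpf: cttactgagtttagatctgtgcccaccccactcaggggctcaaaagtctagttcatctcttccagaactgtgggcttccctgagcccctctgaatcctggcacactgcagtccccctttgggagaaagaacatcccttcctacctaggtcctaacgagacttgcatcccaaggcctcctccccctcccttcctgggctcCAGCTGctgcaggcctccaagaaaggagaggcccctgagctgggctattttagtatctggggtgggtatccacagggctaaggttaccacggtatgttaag
Tnnc2: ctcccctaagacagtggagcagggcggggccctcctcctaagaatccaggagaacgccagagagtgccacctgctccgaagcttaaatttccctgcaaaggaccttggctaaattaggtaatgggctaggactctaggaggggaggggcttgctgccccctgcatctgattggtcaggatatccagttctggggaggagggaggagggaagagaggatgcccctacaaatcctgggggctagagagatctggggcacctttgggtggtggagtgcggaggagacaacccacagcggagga
The letters CAGCTG occur once in the promoters of Ckm and Mylpf and not in that of Tnnc2. The Tnnc2 sequence holds CACCTG, another form of the E-box, which was not marked or counted. Of the 23 listed muscle genes, 18 had a promoter in the set used. CAGCTG is in 11 of those 18 (61.1%), and in 4353 of all 27025 promoters (16.1%). A match is a description of the sequence and not a binding site.

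Among astrocyte genes, 7 of 40 were listed, 5 of them past the threshold, 3 higher and 2 lower, with a median of 0.53, where 30.8% of all listed genes passed. The number past the threshold fell to 1 without WT library 1 or BK KO library 1, to 2 without WT library 2, to 3 without BK KO library 2 or 3, and to 4 without WT library 3, with limma trend or with the replicate number as a block. Astrocytes respond to seizures and injury with reactive changes, in which Gfap and Serpina3n are classical markers. Both were absent from the hippocampus table. Gfap, the intermediate filament of astrocytes, measured 42.5, 50.4 and 23.1 FPKM across WT libraries 1 to 3, against 92.2, 82.6 and 50.9 FPKM for BK KO. BK KO library 3 was just above WT library 2, so the groups barely separated. The log2 change was 0.97 (standard error 0.35), and it was 0.64 and no longer past the threshold without WT library 3, the lowest. Calls were also lost without WT library 1 (1.07), BK KO library 1 (0.80) or BK KO library 2 (0.88). Serpina3n, a secreted protease inhibitor, measured 7.58, 8.14 and 2.76 FPKM across WT libraries 1 to 3, against 12.8, 14.1 and 11.9 FPKM for BK KO. Every BK KO library was above all WT libraries, and WT library 3 was again the lowest. On the log2 scale the change was 1.06 (standard error 0.35), 0.65 without WT library 3, and the call was lost without BK KO library 2 (1.0).

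Fabp7, the brain fatty acid binding protein of astrocytes and radial glia, went the other way. It measured 42.1, 49.9 and 24.7 FPKM across WT libraries 1 to 3, against 17.7, 23.4 and 25.8 FPKM for BK KO. WT library 3 lay among the BK KO libraries. The fitted log2 change of -0.73 (standard error 0.28) was -1.02 without WT library 3, and the call was lost without WT library 2 (-0.53), WT library 1 (-0.65), BK KO library 1 (-0.59) or BK KO library 2 (-0.77), and with the replicate number as a block. Ednrb, an endothelin receptor of astrocytes, did not pass at -0.44. Summed over the list, FPKM were 507, 548 and 433 in WT and 848, 563 and 938 in BK KO libraries, most of it Mt2.

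Mt2 and Mt1 encode metallothioneins, which bind zinc and copper and are induced by glucocorticoids and metals. Mt2, in both tables, was the most abundant listed gene. It measured 350, 378 and 333 FPKM across WT libraries 1 to 3, against 663, 385 and 767 FPKM for BK KO. BK KO library 2 was next to WT and the others were far above it, and the log2 fold change of 0.72 (standard error 0.26) was 1.01 without BK KO library 2. It passed only in that fit among the 6 that left out 1 library, and was 0.52 without BK KO library 3. With limma trend it did not pass. Mt1 had a similar order among BK KO libraries, at 48.1, 38.7 and 68.5 FPKM, overlapped with WT and did not pass. The Mt2 promoter, chr8:94172368-94172667 (plus strand, RefSeq, GRCm38.p6), is shown with the metal response core, TGCACNC or TGCGCNC on either strand, in capitals.
Mt2: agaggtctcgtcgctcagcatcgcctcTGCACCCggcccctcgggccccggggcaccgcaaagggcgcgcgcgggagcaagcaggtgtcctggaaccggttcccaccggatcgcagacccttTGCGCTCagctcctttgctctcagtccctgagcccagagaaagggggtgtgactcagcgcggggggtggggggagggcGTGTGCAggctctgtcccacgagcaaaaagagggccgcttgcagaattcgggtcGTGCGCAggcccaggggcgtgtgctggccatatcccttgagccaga
It holds 4 matches, where 25.6% of all promoters hold at least 1 and 2% hold 3 or more.

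The listed oligodendrocyte and myelin genes were all lower. Oligodendrocytes wrap axons in myelin, a membrane rich in galactolipids, and are coupled to each other and to astrocytes by gap junctions. Of 46 list members 10 were listed, all 10 lower without overlap between groups, 6 past the threshold, and the median was -0.64. Over all 561 genes, 56.3% were lower without overlap and 30.8% were past the threshold. The summed level came to 159, 160 and 133 FPKM over WT libraries 1 to 3, against 83.1, 91.7 and 97 FPKM for BK KO, without overlap. Car2, carbonic anhydrase of oligodendrocytes and other cells, was the most abundant at a mean of 64.7 FPKM. The myelin protein genes Mbp, Mog and Mag were not among the called genes. Absent from the hippocampus table were 6 of the 10, namely Il33, Tmem88b, Gjb1, Aspa, Itgb4 and Evi2a. None of 14 oligodendrocyte precursor markers was listed (0).

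Tmem88b, a membrane protein of oligodendrocytes, measured 13.4, 13 and 11.7 FPKM across WT libraries 1 to 3, against 6.87, 7.61 and 9.29 FPKM for BK KO. The highest BK KO library stayed under the lowest WT library, with a log2 fold change of -0.63 (standard error 0.12) that was -0.54 and below the fold threshold without BK KO library 1. Gjb1, the connexin 32 of oligodendrocyte gap junctions, measured 7.49, 6.48 and 6.53 FPKM across WT libraries 1 to 3, against 3.38, 4.46 and 5.12 FPKM for BK KO. Groups were apart, and its log2 fold change of -0.57 fell short of 0.58. Il33, an alarmin kept in the nucleus of oligodendrocytes and astrocytes, measured 10.4, 11.6 and 10.9 FPKM across WT libraries 1 to 3, against 5.84, 8.17 and 6.06 FPKM for BK KO. Its WT libraries were close together and all BK KO libraries were below them, with a log2 fold change of -0.65 (standard error 0.13), -0.57 without BK KO library 1.

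Of the members in both tables, Ugt8a, the enzyme that makes galactosylceramide of myelin, measured 7.87, 7.11 and 6.29 FPKM across WT libraries 1 to 3, against 3.17, 3.57 and 3.44 FPKM for BK KO. Its hippocampus libraries measured 5.57, 6.70 and 9.90 FPKM across WT libraries 1 to 3, against 3.64, 4.72 and 3.91 FPKM for BK KO. Neither tissue had overlapping groups, and the log2 fold change in cortex was -0.88 (standard error 0.10). Opalin, an oligodendrocyte membrane glycoprotein, had a log2 fold change of -0.93 (standard error 0.27), and Car2 of -0.67 (standard error 0.13). These 3 calls were kept in all 6 fits that left out 1 library.

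Few microglial genes were listed, 4 of 45, all lower and 2 past the threshold, with a median of -0.59, where 395 of all 561 genes were lower and 30.8% past the threshold. Their summed level came to 23.1, 20.1 and 16.3 FPKM over WT libraries 1 to 3, against 7.96, 12.5 and 10.7 FPKM for BK KO, with Fcrls, an Fc receptor-like molecule of resident microglia, the most abundant. Lpl, lipoprotein lipase, absent from the hippocampus table, measured 4.84, 3.94 and 3.15 FPKM across WT libraries 1 to 3, against 1.59, 1.71 and 2.91 FPKM for BK KO. The groups came close at WT library 3 and BK KO library 3, and the log2 fold change was -0.71 (standard error 0.20). Fcrls measured 10.6, 9.43 and 8.36 FPKM across WT libraries 1 to 3, against 2.26, 5.60 and 4.67 FPKM for BK KO, a log2 fold change of -1.07 (standard error 0.27). Itgam, the CD11b integrin chain, overlapped between groups and did not pass at -0.48. F13a1, a transglutaminase of macrophages, did not pass at -0.32. Widely used microglial markers such as Aif1, Cx3cr1, P2ry12 and Tmem119 were not among the called genes.

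MHC genes present peptides to T cells, and class II molecules are made by B cells and by activated microglia and macrophages. Of 29 genes 5 were listed, 1 past the threshold. The groups overlapped in 3 of them, and H2-M10.2 was listed at 0 throughout. Over all 561 genes, 30.8% were past the threshold and 80.6% did not overlap. The list leaves out the class I gene H2-T24, which was lower without overlap at -0.35 and did not pass. H2-Aa, a class II alpha chain, measured 4.80, 5.99 and 2.51 FPKM across WT libraries 1 to 3, against 1.34, 3.35 and 1.33 FPKM for BK KO. WT library 3 was under BK KO library 2. Its log2 fold change of -0.86 (standard error 0.35) was -1.15 without WT library 3, and the call was lost without WT library 1 (-0.79), WT library 2 (-0.65), BK KO library 1 (-0.71) or BK KO library 3 (-0.71). The class II beta chain H2-Eb1 and the class I gene H2-Q6 shared the low value in WT library 3. H2-Eb1 measured 3.37, 3.49 and 1.27 FPKM across WT libraries 1 to 3, against 1.18, 1.48 and 1.16 FPKM for BK KO. H2-Q6 measured 2.72, 2.68 and 0.859 FPKM across WT libraries 1 to 3, against 0.907, 1.04 and 0.680 FPKM for BK KO. Neither passed, at -0.64 and -0.65, and each passed without WT library 3, at -0.96 and -0.99. With that library left out 3 of the list were past the threshold, as also with a pseudocount of 0.1, a mean FPKM of at least 1, limma trend or the replicate number as a block. Without WT library 1, WT library 2, BK KO library 1 or BK KO library 3 there were 0. MHC genes of the H2-Q group are close copies, and their reads may be split. Ciita, the class II transactivator, was under 0.1 FPKM in all libraries, and H2-M10.2 was at 0 although the authors' base means for it were 14.3 in WT and 2.93 in BK KO. A listed 0 is therefore no proof that reads were absent, here or for other genes.

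Of 51 interferon and innate sensing genes 4 were listed, Isg15, Il33, Gbp3 and Nlrp10, and only Il33 passed. Among all listed genes 30.8% passed. Nlrp10 was higher without overlap at 0.16, with a mean under 0.1 FPKM, and did not pass. Leaving out 1 library gave 0 to 2 past the threshold. The list leaves out Irf3, a transcription factor of interferon induction in both tables, which passed at -0.61 (standard error 0.14), and Gbp4, Gbp9, Trim30a and Ifi203, which were lower and did not pass. Isg15, a ubiquitin-like protein induced by interferon, measured 3.39, 4.42 and 1.91 FPKM across WT libraries 1 to 3, against 0.965, 1.62 and 2.37 FPKM for BK KO. BK KO library 3 was above WT library 3. Of 65 complement, chemokine and cytokine genes 3 were listed, all lower, and 2 passed, Cfp and Cxcl12, both also in the hippocampus table. Over all 561 listed genes, 395 were lower and 30.8% passed. Cfp, properdin of the alternative complement pathway, had a log2 fold change of -0.99 (standard error 0.28) and Cxcl12, a chemokine of vessels and some neurons, of -0.76 (standard error 0.18). Tnfsf10, a death receptor ligand, did not pass at -0.24. None of 33 lymphocyte, neutrophil and mast cell markers was listed (0).

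Blnk and Cd7 are immune genes outside these lists that met the rule for the 10 largest rises. Blnk, an adaptor of B cell receptor signaling that is also made by microglia, measured 3.57, 2.64 and 2.62 FPKM across WT libraries 1 to 3, against 9.06, 10.3 and 4.96 FPKM for BK KO. Each BK KO library lay above all WT libraries. Its log2 fold change of 1.16 (standard error 0.26) was the largest such rise among genes of that group that met the naming rule. Cd7, a surface protein of T and natural killer cells, measured 1.65, 1.0 and 1.82 FPKM across WT libraries 1 to 3, against 3.93, 3.95 and 2.99 FPKM for BK KO. Its groups were well apart, with a log2 fold change of 0.90 (standard error 0.16). Both calls were kept in all 6 fits that left out 1 library. They stand for themselves and not for a list. Immune genes of the table outside the lists include some that were higher, among them C3ar1 and Gpnmb, both also in the hippocampus table. Others were lower, such as Lst1, a leukocyte-specific transcript, at -0.99 (standard error 0.20), and Dok3, an adaptor of immune cells, at -0.81 (standard error 0.27). Dok3 passed in 2 of these fits. Lst1 and Dok3 were absent from the hippocampus table.

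**Figure D3:**
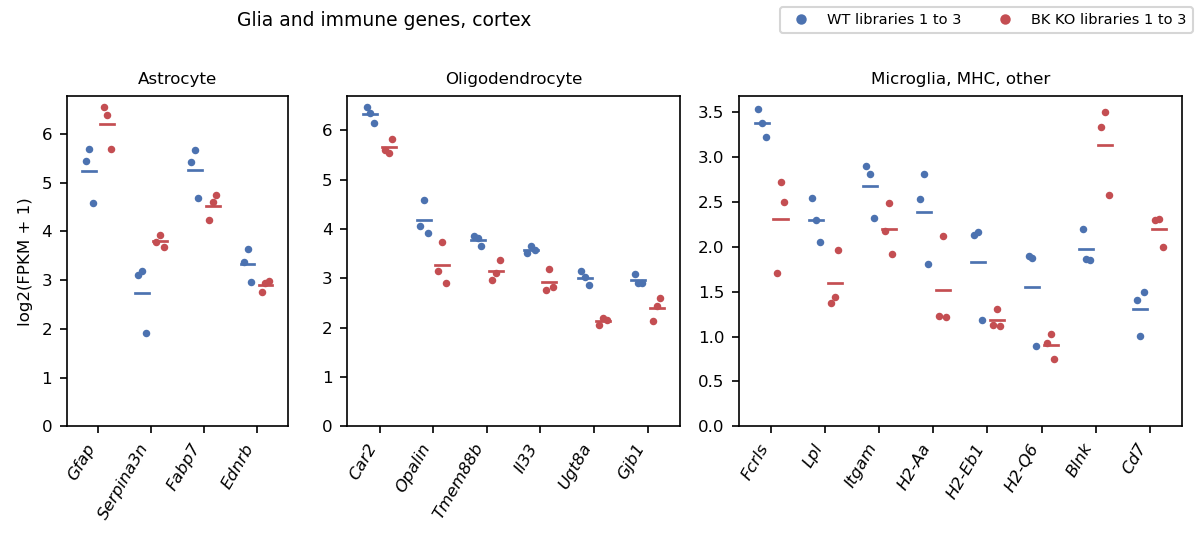
log2(FPKM + 1) of glia and immune genes in each cortex library, libraries 1 to 3 from left to right, with bars for group means (n = 3). Oligodendrocyte genes are lower in all BK KO libraries, while WT library 3 is low for Gfap (23.1 FPKM), Serpina3n and the MHC genes.

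Adhesion genes moved in both directions. Cadherins join cells through calcium-dependent contacts, and protocadherins give neurons a surface identity. Of 50 classical cadherins and related genes 5 were listed, 3 higher and 2 lower, none with overlapping groups, and 2 passed, 1 in each direction, with a median of 0.41. Over all 561 genes, 80.6% did not overlap and 30.8% passed. Leaving out 1 library gave 0 to 3 of the list, 0 without BK KO library 3. Cdh13, a cadherin anchored by a lipid and found in neurons and vessels, measured 14.2, 14.5 and 13.1 FPKM across WT libraries 1 to 3, against 18.7, 24.1 and 25.9 FPKM for BK KO. WT libraries were tight and all BK KO libraries were above them. The log2 change was 0.66 (standard error 0.13), and 0.57 without BK KO library 3, where the call was lost. Celsr3, a large cadherin that guides axons, measured 9.30, 12.6 and 13.9 FPKM across WT libraries 1 to 3, against 9.24, 7.05 and 5.92 FPKM for BK KO. WT library 1 and BK KO library 1 were almost equal, and the log2 fold change was -0.62 (standard error 0.20). That call was lost without BK KO library 2 (-0.60), BK KO library 3 (-0.49), WT library 2 (-0.58) or WT library 3 (-0.51), and with the replicate number as a block (-0.62).

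Cdh22 and Cdh19 had log2 fold changes of 0.48 and 0.41 and Cdh24, also in the hippocampus table, of -0.54, and none of them passed. Of 58 clustered protocadherins, Pcdhb4 and Pcdhgb4 were listed at -0.26 and 0.35 and neither passed. These genes share exons or sequence with their neighbors, so their reads are uncertain. Of 83 immunoglobulin and synaptic adhesion genes, Sdk1, which matches synaptic partners in layers of the retina, and Nectin3 were listed, at 0.48 and -0.38, and neither passed. Sdk1 measured 0.991, 1.24 and 0.896 FPKM across WT libraries 1 to 3, against 1.53, 2.53 and 1.55 FPKM for BK KO, without overlap.

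Most listed matrix genes were lower, as were 395 of all 561 genes. Of 99 integrins, laminins and matrix genes 13 were listed, 11 of them absent from the hippocampus table, 12 lower and 1 higher, and 4 passed, 3 lower and 1 higher, with a median of -0.40. Over all listed genes 30.8% passed. With a pseudocount of 0.1, 11 of the 13 passed, where 408 of all 561 did, and without WT library 2, BK KO library 1 or BK KO library 3 there were 2. The summed level came to 120, 112 and 79.7 FPKM over WT libraries 1 to 3, against 112, 140 and 155 FPKM for BK KO, most of it Sparc. Prelp, a leucine-rich proteoglycan of basement membranes, measured 6.71, 6.43 and 5.48 FPKM across WT libraries 1 to 3, against 2.07, 3.56 and 4.19 FPKM for BK KO. Its groups were apart, with a log2 fold change of -0.78 (standard error 0.21), -0.56 without BK KO library 1, where the call was lost. Thbs3, a thrombospondin, had a log2 fold change of -0.60 (standard error 0.17) and Mfap4, a microfibril-associated protein, of -0.58 (standard error 0.18). Each passed in 3 of the 6 fits that left out 1 library, down to -0.48 for Thbs3 without WT library 2 and -0.45 for Mfap4 without WT library 1.

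Sparc, a matricellular protein secreted by glia and vessels and listed in both tables, was the one member of this matrix list that rose. It measured 92.2, 84.2 and 58.5 FPKM across WT libraries 1 to 3, against 98.8, 124 and 140 FPKM for BK KO. BK KO library 1 was little above WT library 1, and the log2 fold change was 0.63 (standard error 0.21), 0.44 without WT library 3. Its call was lost there, without BK KO library 2 (0.61) or BK KO library 3 (0.52), and with the replicate number as a block (0.63).

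Collagens form fibrils and basement membranes around vessels and meninges, and some are made by neurons. Of 44 genes 11 were listed, all 11 lower, 5 past the threshold and 8 without overlap, with a median of -0.55. Over all 561 genes, 395 were lower, 30.8% were past the threshold and 80.6% did not overlap. Absent from the hippocampus table were Col16a1, Col11a2, Col24a1 and Col13a1. The summed level came to 19.4, 25.8 and 27.0 FPKM over WT libraries 1 to 3, against 13.8, 11.4 and 7.06 FPKM for BK KO. With a pseudocount of 0.1, 10 of the list passed, and 9 with 0.5. Without BK KO library 3, the lowest, 2 of the list passed, 3 without WT library 2, and 8 passed without WT library 1 or without BK KO library 1. Col16a1, a fibril-associated collagen, measured 3.24, 4.58 and 3.61 FPKM across WT libraries 1 to 3, against 2.04, 2.07 and 1.23 FPKM for BK KO. The groups were apart, with a log2 fold change of -0.80 (standard error 0.17). Col11a2, a minor fibrillar collagen, measured 4.91, 4.28 and 3.55 FPKM across WT libraries 1 to 3, against 2.17, 2.58 and 1.65 FPKM for BK KO, also apart, with a log2 fold change of -0.75 (standard error 0.15). Col5a1, in both tables, measured 4.54, 7.70 and 9.46 FPKM across WT libraries 1 to 3, against 4.57, 2.76 and 1.15 FPKM for BK KO. Here BK KO library 1 was about equal to WT library 1, and the log2 fold change of -1.16 (standard error 0.40) passed in 2 of the 6 fits, reaching -0.80 without BK KO library 3, and did not pass with the replicate number as a block.

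**Figure D4:**
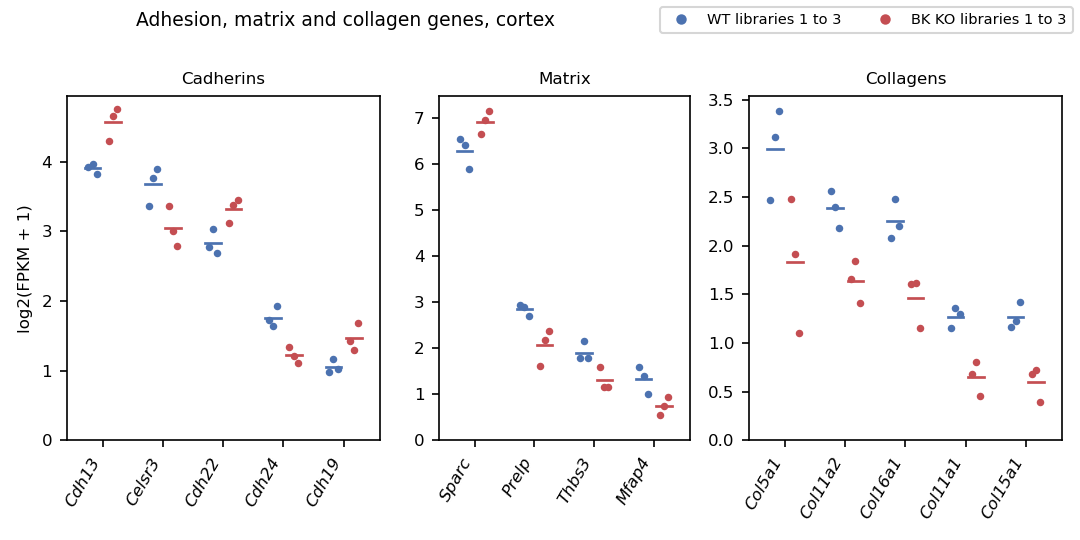
log2(FPKM + 1) of cadherin, matrix and collagen genes in each cortex library, libraries 1 to 3 from left to right, with bars for group means (n = 3). Cdh13 and Sparc are higher in BK KO, the collagens are lower, and Col5a1 overlaps at library 1 of each genotype (4.54 and 4.57 FPKM).

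Listed vessel genes were mostly shared with the hippocampus table. Of 42 pericyte and endothelial genes 8 were listed, 1 of them absent from the hippocampus table. All 8 had negative log2 fold changes, with a median of -0.52, but 3 had overlapping groups and 2 passed, where 30.8% of all listed genes did. Of all 561 genes, 395 were lower and 80.6% did not overlap. With a pseudocount of 0.1 the list had 6 past the threshold, where 408 of all 561 genes were. The summed level came to 59.3, 67.1 and 47.3 FPKM over WT libraries 1 to 3, against 35.4, 37.0 and 37.5 FPKM for BK KO, and Itm2a, a membrane protein of endothelium, was the most abundant. Slco1c1, the thyroxine transporter of brain endothelium, measured 19.6, 17.6 and 14.6 FPKM across WT libraries 1 to 3, against 11.7, 8.75 and 12.2 FPKM for BK KO. Groups were apart, and the log2 fold change of -0.62 (standard error 0.16) lost its call without BK KO library 2 (-0.49) or WT library 1 (-0.53). Klf4, a transcription factor of endothelium induced by flow, was the member absent from the hippocampus table, at -0.59 (standard error 0.16). Its call was lost without BK KO library 2 (-0.52), WT library 1 (-0.51) or WT library 3 (-0.52). Without WT library 1, 0 of the list passed, and 3 did without BK KO library 1 or WT library 3. Of 30 meningeal and perivascular fibroblast genes 4 were listed, Slc22a6, Ogn, Ranbp3l and Cemip, all lower without overlap. In the limma fit 0 of them passed, and 2 with a pseudocount of 0.1. Over all 561 genes, 56.3% were lower without overlap. Unadjusted limma p-values were under 0.05 for Ogn, Ranbp3l and Cemip. Of 25 choroid plexus and ependymal genes 0 were listed.

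Among neuronal genes, those of inhibitory transmission included large changes in both directions. GABA is made by glutamate decarboxylases, among them Gad2, and acts on pentameric channels built from subunits such as Gabra2. Of 50 genes 3 were listed and all 3 passed, 2 higher and 1 lower, where 30.8% of all listed genes did. Without BK KO library 2 or WT library 3 there were 2. Gabra2, the alpha2 subunit found at the axon initial segment of pyramidal cells, measured 24.2, 11.4 and 9.33 FPKM across WT libraries 1 to 3, against 5.20, 6.42 and 4.86 FPKM for BK KO. WT library 1 was more than the sum of the other WT libraries, and all BK KO libraries were below all WT libraries. On the log2 scale the change was -1.19 (standard error 0.34) and -0.81 without WT library 1, still past the threshold. Crhbp, which binds corticotropin-releasing hormone and marks a subset of somatostatin interneurons, measured 11.9, 9.78 and 10.5 FPKM across WT libraries 1 to 3, against 19.2, 29.2 and 15.9 FPKM for BK KO. Every BK KO library was above all WT libraries, BK KO library 2 most, with a log2 fold change of 0.90 (standard error 0.22), 0.66 without BK KO library 2.

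Gad2, listed in both tables, measured 14.3, 15.6 and 12.9 FPKM across WT libraries 1 to 3, against 19.1, 33.1 and 20.6 FPKM for BK KO. Its groups were apart and BK KO library 2 was again the highest. The fitted log2 change of 0.69 (standard error 0.21) was 0.45 without BK KO library 2 and 0.62 without WT library 3, and the call was lost in both. In hippocampus, Gad2 measured 12.8, 14.7 and 16.4 FPKM across WT libraries 1 to 3, against 34.1, 37.5 and 29.8 FPKM for BK KO.

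BK KO library 2 was also highest for Adra1b and Drd4. Adra1b, an alpha-1 adrenergic receptor coupled to Gq, measured 6.50, 8.27 and 6.32 FPKM across WT libraries 1 to 3, against 12.1, 17.6 and 9.72 FPKM for BK KO. The groups were apart, with a log2 fold change of 0.79 (standard error 0.22) that was 0.57 without BK KO library 2, where the call was lost. Drd4, a dopamine receptor, measured 0.102, 0.200 and 0.143 FPKM across WT libraries 1 to 3, against 0.932, 1.51 and 0.229 FPKM for BK KO. BK KO library 3 was close to WT. Its log2 fold change of 0.66 (standard error 0.26) passed in 1 of the 6 fits and was 0.42 without BK KO library 2. These were the 2 of 72 amine and other transmitter receptors that were listed, and both passed, where 30.8% of all listed genes did. Without BK KO library 2, 0 passed.

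Of 70 neuropeptide and receptor genes 5 were listed and 2 passed, Pdyn and Scg2, both higher, where 30.8% of all listed genes passed. Without BK KO library 2 there were 0. Scg2, a secretogranin of dense-core vesicles in both tables, measured 72.8, 58.3 and 59.8 FPKM across WT libraries 1 to 3, against 82.9, 126 and 93.2 FPKM for BK KO. Each BK KO library was above all WT libraries. The log2 change was 0.64 (standard error 0.18), with the call lost without BK KO library 2 (0.47) or WT library 2 (0.58). Pdyn, the precursor of dynorphins, measured 8.58, 16.3 and 9.92 FPKM across WT libraries 1 to 3, against 18.1, 15.9 and 17.9 FPKM for BK KO. WT library 2 lay above BK KO library 2, and the log2 fold change of 0.58 (standard error 0.23) passed in 1 of the 6 fits, reaching 0.41 without WT library 1. It did not pass with the replicate number as a block. The neuropeptide Y receptor Npy1r measured 4.05, 3.87 and 4.94 FPKM across WT libraries 1 to 3, against 2.15, 2.73 and 3.23 FPKM for BK KO. It was lower without overlap and its log2 fold change of -0.52 fell short of 0.58. Crhr1, the receptor of corticotropin-releasing hormone, overlapped between groups at -0.45.

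Few ion channel genes besides Kcnma1 were listed. Of 88 BK subunit and potassium channel genes there were 3, and Kcnma1 was the one that passed, where 30.8% of all listed genes did. Without BK KO library 1, BK KO library 3 or WT library 2 there were 2, while a pseudocount of 0.1 gave 3. Kcng1, a silent subunit that modifies Kv2 channels, measured 6.55, 4.70 and 6.79 FPKM across WT libraries 1 to 3, against 2.99, 3.79 and 4.68 FPKM for BK KO. BK KO library 3 was next to WT library 2 with no overlap, and the log2 fold change was -0.54. Kcnip1, a calcium-binding partner of Kv4 channels found in interneurons, measured 4.78, 4.53 and 4.28 FPKM across WT libraries 1 to 3, against 5.23, 9.10 and 6.99 FPKM for BK KO. It was higher without overlap at 0.52 and did not pass. Of 70 sodium, calcium and other channel genes 3 were listed, Ryr1, Trpc5 and Ryr3, all lower without overlap, and Ryr1 passed. Over all 561 genes, 56.3% were lower without overlap. Ryr3, a calcium release channel of brain, measured 1.55, 1.67 and 1.40 FPKM across WT libraries 1 to 3, against 1.01, 1.05 and 1.01 FPKM for BK KO. Libraries of each group were close together, at a log2 fold change of -0.33 (standard error 0.08).

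Of 68 glutamate receptor and synapse genes 2 were listed, both also in the hippocampus table and both past the threshold. Over all 561 listed genes 30.8% were past it, and fits that left out 1 library gave 0 or 1 of these 2. Grm3, a metabotropic receptor of astrocytes and neurons, measured 15.2, 15.3 and 13.2 FPKM across WT libraries 1 to 3, against 8.60, 12.4 and 7.39 FPKM for BK KO. Groups were apart, and the log2 fold change of -0.60 (standard error 0.18) passed in 2 of the 6 fits, reaching -0.46 without BK KO library 3. Syn3, a synapsin of synaptic vesicles, had a log2 fold change of 0.62 (standard error 0.15) and passed in 3 of them, with 0.54 without BK KO library 2 or 3. Of 71 markers of other brain regions 3 were listed, Pdyn, Wfs1 and Bok, all higher and past the threshold. Only 1 of these calls was kept without WT library 3. Over all 561 listed genes, 10.9% were past the threshold and higher. Wfs1, an endoplasmic reticulum protein that marks CA1 and upper cortical layers, measured 34.7, 38.9 and 37.6 FPKM across WT libraries 1 to 3, against 58.2, 67.5 and 54.5 FPKM for BK KO. These groups were far apart against their spread, with a log2 fold change of 0.68 (standard error 0.11). Bok, a BCL-2 family protein absent from the hippocampus table, measured 31.0, 29.5 and 19.3 FPKM across WT libraries 1 to 3, against 36.7, 44.9 and 48.6 FPKM for BK KO. WT library 3 was the lowest, and the log2 fold change of 0.71 (standard error 0.21) was 0.50 without it, where the call was lost.

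Of 60 activity-dependent and stress-responsive genes 9 were listed, 7 also in the hippocampus table, and 6 passed, 3 higher and 3 lower, where 30.8% of all listed genes passed. Without WT library 3 there were 3, and 4 without WT library 1 or BK KO library 1. Cdkn1a, the p21 inhibitor of cyclin-dependent kinases, measured 21.8, 14.9 and 18.6 FPKM across WT libraries 1 to 3, against 35.5, 30.7 and 44.1 FPKM for BK KO. Its groups were well apart, at a log2 fold change of 0.96 (standard error 0.18). Fkbp5, a glucocorticoid-induced co-chaperone, measured 9.90, 9.01 and 7.0 FPKM across WT libraries 1 to 3, against 19.7, 14.4 and 27.4 FPKM for BK KO. It was higher in all BK KO libraries, with BK KO library 3 highest as for Mt2, and the log2 fold change was 1.12 (standard error 0.24). Npas4, a transcription factor induced by neuronal activity, was lower at -0.84 (standard error 0.25). Egr2, another such factor, absent from the hippocampus table, measured 2.04, 1.02 and 2.68 FPKM across WT libraries 1 to 3, against 0.709, 0.446 and 1.3 FPKM for BK KO. WT library 2 lay under BK KO library 3, and the log2 fold change of -0.66 (standard error 0.27) passed in 2 of the 6 fits, reaching -0.47 without WT library 3.

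**Figure D5:**
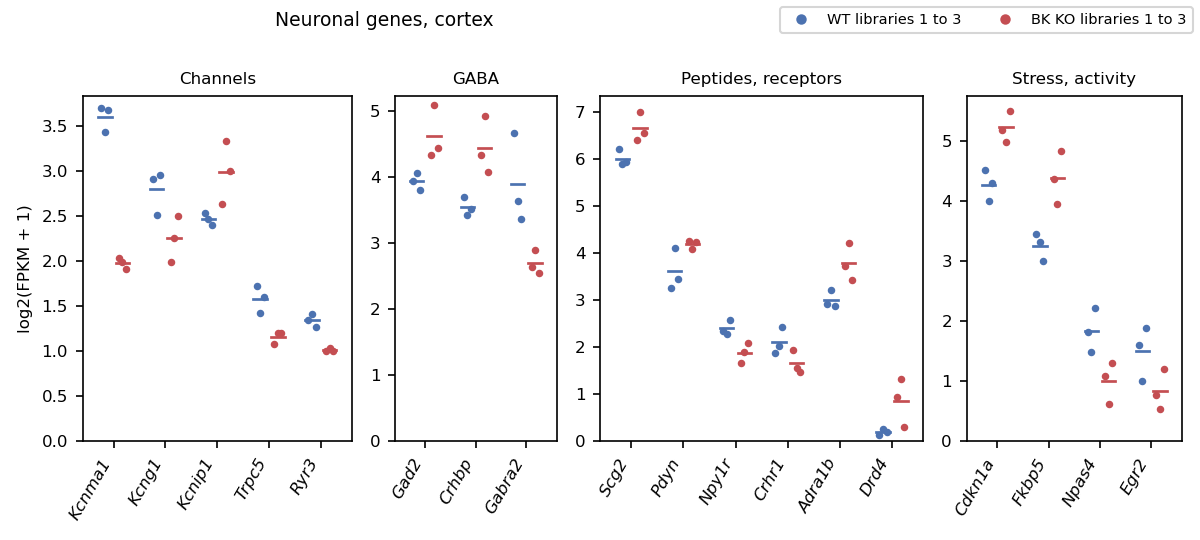
log2(FPKM + 1) of channel, GABA, peptide, receptor and stress or activity genes in each cortex library, libraries 1 to 3 from left to right, with bars for group means (n = 3). Kcnma1 is lower and Crhbp, Cdkn1a and Fkbp5 are higher in all BK KO libraries, and Gabra2 is high in WT library 1 (24.2 FPKM).

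Other genes absent from the hippocampus table met the rule for the 10 largest rises and falls. Ccdc3, a secreted coiled-coil protein, ranged from 4.47 to 7.67 FPKM over WT and from 9.68 to 13.5 FPKM over BK KO libraries. No library of a group reached into the other, at a log2 fold change of 0.90 (standard error 0.22). Krt80, an epithelial keratin, had a log2 fold change of 0.87 (standard error 0.16). Cidea, a lipid droplet protein best known in brown fat, had one of 0.78 (standard error 0.23) and lost its call without BK KO library 2 (0.56), WT library 1 (0.72) or WT library 3 (0.70). Plk5, a polo-like kinase without kinase activity found in brain, measured 6.28, 8.12 and 5.26 FPKM across WT libraries 1 to 3, against 2.68, 1.48 and 3.59 FPKM for BK KO. Its groups were apart, at a log2 fold change of -1.10 (standard error 0.26). The uncharacterized LOC108167575 measured 2.47, 0.905 and 3.45 FPKM across WT libraries 1 to 3, against 0.304 and 0.263 FPKM for BK KO libraries 2 and 3, and was listed at 0 in BK KO library 1.

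Among shared genes, Etnppl, an enzyme of phosphoethanolamine breakdown made by astrocytes, rose most. It measured 4.79, 10.8 and 6.99 FPKM across WT libraries 1 to 3, against 19.8, 17.7 and 30.7 FPKM for BK KO. In hippocampus the values were 4.62, 9.43 and 6.40 FPKM across WT libraries 1 to 3, against 20.8, 13.7 and 25.8 FPKM for BK KO. BK KO libraries were above WT libraries in each tissue, and the log2 fold change in cortex was 1.5 (standard error 0.31). Htra4, a serine protease, had a log2 fold change of 1.44 (standard error 0.41) and Plekha2, a phosphoinositide-binding adaptor, of 1.16 (standard error 0.30). Gpr139, an orphan receptor of brain, measured 0.0617, 0.240 and 0.237 FPKM across WT libraries 1 to 3, against 1.69, 3.69 and 0.308 FPKM for BK KO. BK KO library 3 was near WT, and the log2 fold change of 1.11 (standard error 0.44) passed in 1 of the 6 fits, with 0.67 without BK KO library 2. Among shared genes past the threshold without overlap, which leaves out Col5a1, the largest falls after Kcnma1 were Apln, a peptide ligand of vessels, at -1.13 (standard error 0.16), Lime1, a lymphocyte adaptor, at -1.09 (standard error 0.30), and Fcrls and Cfp.

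GO terms that the deposited table attaches to its genes gave further groups. Extracellular matrix covered 20 genes (1 higher, 19 lower) and 14 passed, with a median of -0.65. Protein kinase activity covered 19 genes (2 higher, 17 lower) and 8 passed. Ion transport had 23 genes, 5 higher and 18 lower, of which 9 passed. Centrosome had 11 genes, all 11 lower without overlap, of which 2 passed. Cytoplasmic vesicle had 20 genes, 10 higher and 10 lower, with 7 rises and 3 falls past the threshold. Fits that left out 1 library gave 9 to 13 past the threshold for extracellular matrix, 5 to 7 for protein kinase activity, 6 to 10 for ion transport, 2 for centrosome and 5 to 11 for cytoplasmic vesicle, the lowest of these without BK KO library 2 or WT library 3. These terms were picked after their counts were seen, and stand beside 164 higher and 395 lower among all 561 genes, with 30.8% past the threshold and 56.3% lower without overlap.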

How the data were processed

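The series holds 12 poly-A libraries, and the 6 from cortex (3 BK KO, 3 WT) were compared. By the submitters' processing notes, DESeq 1.10.1, DESeq2 and build mm9 were used, and the aligner and read counter are not given in the sources used here. The deposited per-library values are treated as FPKM from their digits and scale, since the authors give no unit. The deposited base means are the authors' normalized signal per group, averaged from scaled reads, and were not tested here. The authors' fold changes and p-values were also deposited, and were not used. Each deposited table lists called genes only.

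FPKM were fitted with limma 3.58.1 in R 4.3.3, using lmFit with eBayes and neither trend nor block, on log2(FPKM + 1), over all 561 cortex genes, with Benjamini-Hochberg adjustment over these genes. The limma script was tested on simulated data. Tables and figures were made in Python 3.11.15 with pandas 2.3.3, numpy 2.4.6, matplotlib 3.10.9 and scipy 1.17.1. All per-library columns matched a sample by name (0 unmatched), and 0 of 30 pairs of libraries within a table held identical values. GO terms came from the table. Gene IDs matched RefSeq for 559 genes.

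Named were Kcnma1, members of 29 gene lists (at most the 5 most abundant and the 5 largest changes each), and the 10 largest rises and falls among genes absent from the hippocampus table. The 5 largest of each among shared genes were also named. Both sets required a call, groups without overlap, and mean FPKM no lower than 1. The members and lists were chosen with earlier results of these data known. Some further list members are named as examples after their values were seen.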

Additional observations from a re-analysis of the deposited data

How the results depend on the processing

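The genes past the threshold numbered 173, and 408 with a pseudocount of 0.1 in place of 1, 255 with 0.5, and 25 with a log2 fold change beyond 1. All 173 were among the 408 and the 255, while the fits that left out 1 library kept 110 (without WT library 3) to 140 (without WT library 1) of the 173. Higher genes went from 61 to 118 with a pseudocount of 0.1 and 8 beyond 1, and lower genes from 112 to 290, to 173 with 0.5 and to 17 beyond 1. For genes absent from the hippocampus table, 92 became 240 with a pseudocount of 0.1 and 14 beyond 1. A smaller pseudocount lets genes of low FPKM reach the fold threshold. Leaving out 1 library gave 135 to 180 genes, 34 to 64 higher, 89 to 122 lower and 75 to 88 absent from the hippocampus table. The higher count was 34 without WT library 3, whose cause was not tested. A mean FPKM of at least 1, limma trend and limma robust gave 168, 182 and 175.

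The labels do not say that replicate numbers pair the mice of the genotypes. Deviations of same-numbered libraries had a mean correlation of -0.11 across genes, with a range from -0.24 to 0.12. For libraries of unlike number it ranged from -0.14 to 0.37, the highest between WT library 3 and BK KO library 1. A shared origin of libraries was not tested. A fit that took the replicate number as a block called 165 genes, 60 higher and 105 lower, and 89 of those absent from the hippocampus table. Of 136 named or listed genes, 5 calls were lost and 3 gained under the block.

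No gene among these 136 changed direction in any alternative (0). All of them had been called on these same libraries, so a kept direction is no independent test. The depth of the libraries is unknown, so counting error of low genes could not be given.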
